A study of Mus musculus with 24 samples.

Results

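The 10 genes described here build, cap or remodel actin filaments, and they were followed across the formation of heart muscle cells in mouse cultures and the growth of the mouse heart. They are the actin capping protein subunits Capzb, Capza1 and Capza2, the actin scaffold palladin (Palld), the actin-oxidizing enzyme Mical2, the formins Fhod1, Fhod3 and Daam1, and the Arp2/3 complex subunits Arpc5 and Arpc5l. They make up 10 of 19920 genes measured, and 171 of 203574 exon-level probe sets, each a small group of array probes that reads 1 stretch of a transcript. They were chosen by measured values: some were picked for exon-level changes on these same arrays and the rest are their close relatives. For that reason their values are given as a description, with no p-value.

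RNA was measured on Affymetrix mouse gene arrays in 6 groups with 2 arrays each. Of the 3 cultured groups, grown in DMEM with 10% serum, day 0 was undifferentiated embryonic stem cells (ES), day 7 embryonic bodies (EB, aggregates in which ES cells differentiate) and day 14 cardiac bodies (CB, the later stage on the way to cardiomyocytes). The other 3 were whole hearts from E17.5 embryos, postnatal day 1 mice (P1) and adult mice, whose age, like the strain and sex of all mice and the ES line, is not in the labels used here. The labels name no transgene, allele or treatment, and do not say whether the 2 arrays of a group came from separate cultures or animals, so the spread may be technical. The series was made to follow gene expression and alternative splicing in heart development and cardiomyocyte differentiation.

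Actin filaments grow and shrink mainly at their barbed ends. Capping protein, a pair of 1 alpha and 1 beta subunit, closes those ends, and in muscle it anchors thin filaments at the Z-disc, where a muscle form of the beta subunit made by alternative splicing of Capzb is used. Formins nucleate and elongate unbranched filaments, the Arp2/3 complex nucleates branches, Mical enzymes oxidize actin and take filaments apart, and palladin ties actin to alpha-actinin. Several of these genes are known to make different proteins in muscle and in other cells through alternative exons or start sites.

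Values are log2 signals as the authors deposited them. The level of one probe set cannot be set against that of another, because probes differ in brightness, so only differences between groups are compared. The index takes a probe set's log2 signal and subtracts that of its gene on the matching gene-level array, so a probe set that follows its gene keeps 1 index in every group. Errors after ± are standard errors of a limma fit over all 12 arrays, with n = 2 in each group. The median signal of an array was 5.62 to 5.76 for genes and 6.40 to 6.53 for probe sets. The median of 8 cardiomyocyte markers was 12.22 and 11.64 in CB and 12.12 to 12.90 in hearts, against 5.31 to 5.59 in ES cells and EB. The median of 6 pluripotency markers was 10.20 and 10.68 in CB, against 11.03 and 11.21 in ES cells. The endoderm median was 7.41 and 7.68 in CB, against 4.49 to 5.87 on the other arrays, and the epithelial median was 10.76 and 10.99 in EB, against 8.10 and 8.06 in ES cells. The part of these cell types in the values of the 10 genes was not tested. The median of 7 fibroblast markers was 5.94 and 6.16 in CB, against 11.06 and 11.23 in E17.5 hearts, and that of 6 endothelial markers was 5.16 and 5.38 in CB, against 9.18 and 9.04 in E17.5 hearts. Of the cardiomyocyte markers Myl7, the atrial myosin light chain, was 5.42 in adult replicate 1 and 11.27 in adult replicate 2.

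At gene level the 10 genes fell into a set of 4 that were far lower in ES cells than in hearts and a set of 6 that varied little. The span of the 6 group means was 4.68 for Mical2, 4.27 for Fhod3, 3.46 for Palld and 2.25 for Daam1, and between 0.58 for Capza2 and 1.06 for Capzb in the other 6. In bulk RNA, fewer cells of a type and less RNA per cell cannot be told apart. Between the highest and the lowest group the arrays of all 4 genes of the first set did not overlap.

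**Figure D1:**
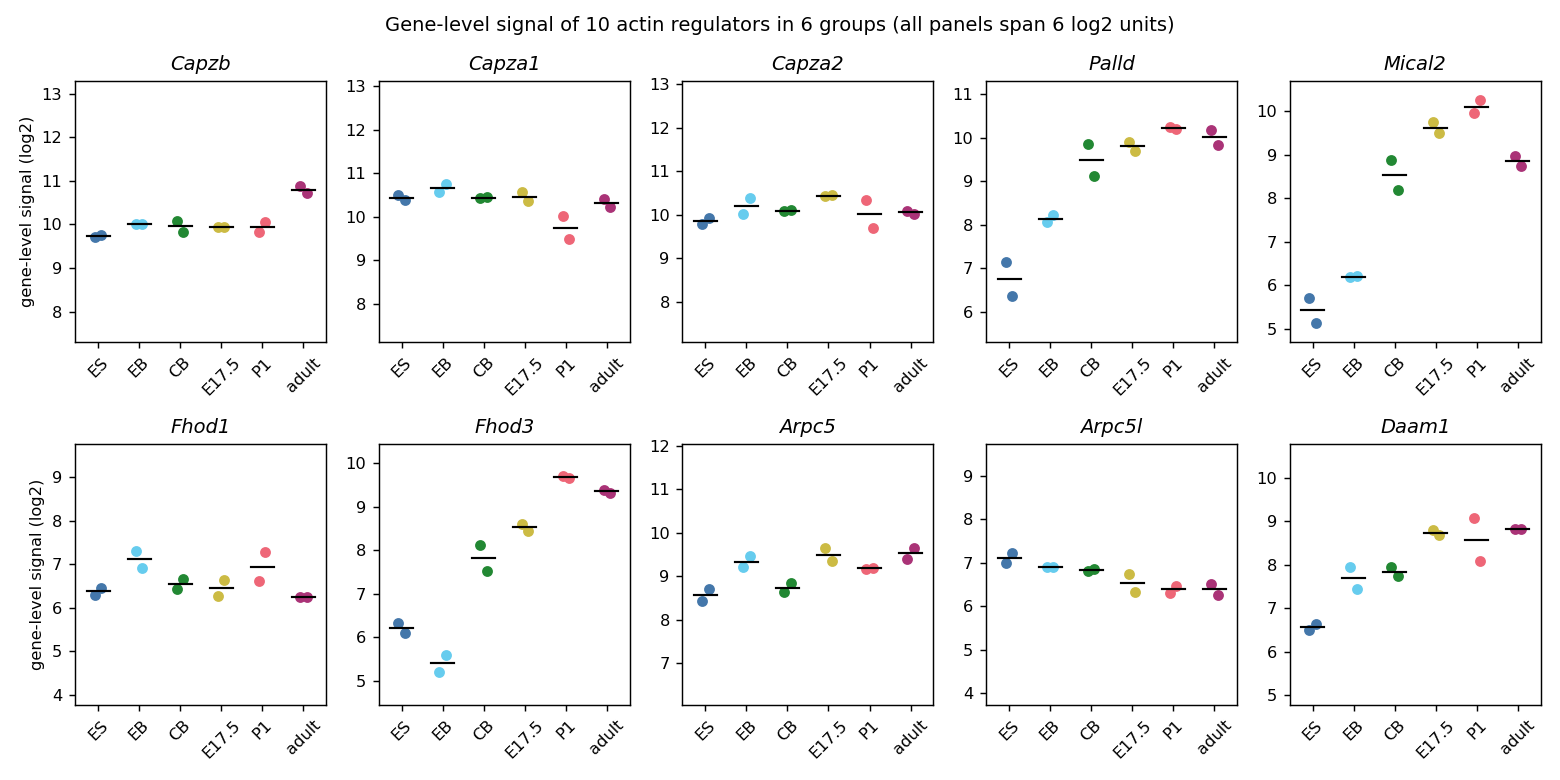
Gene-level log2 signal (y axis) of the 10 genes in 6 groups (x axis). Each point is 1 array, each bar the mean of 2, and every panel spans 6 log2 units. Mical2, Fhod3, Palld and Daam1 were lowest in the ES or EB cultures, while the capping protein subunits stayed within about 1 log2 unit.

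Palld, whose protein palladin binds actin and alpha-actinin, had gene-level signals of 7.14 and 6.37 in ES cells, 8.07 and 8.22 in EB, 9.86 and 9.13 in CB, 9.91 and 9.71 at E17.5, 10.24 and 10.20 at P1 and 10.19 and 9.85 in adult hearts. The arrays of ES cells, EB and CB were apart from each other, those of CB and E17.5 hearts overlapped, and so did those of E17.5 and adult hearts. CB exceeded ES cells by 2.74 ± 0.28 and EB by 1.35 ± 0.28.

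Mical2, which oxidizes actin and is known to act on the serum response factor pathway, had gene-level signals of 5.72 and 5.13 in ES cells, 6.18 and 6.22 in EB and 8.88 and 8.19 in CB, then 9.75 and 9.50 at E17.5, 9.95 and 10.26 at P1 and 8.97 and 8.73 in adult hearts. P1 hearts were the highest, and the adult arrays overlapped those of CB. Adult hearts differed from P1 hearts by -1.26 ± 0.25, and E17.5 hearts were 4.20 ± 0.25 above ES cells.

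Fhod3, the formin known to be needed for sarcomere assembly in the mouse heart, had gene-level signals of 6.33 and 6.08 in ES cells, 5.19 and 5.60 in EB, 8.10 and 7.51 in CB, 8.61 and 8.44 at E17.5, 9.69 and 9.65 at P1 and 9.39 and 9.31 in adult hearts. It was the only one of the 10 genes with its lowest group mean in EB, and each of the 5 neighbouring pairs of groups in its order was apart. P1 hearts exceeded E17.5 hearts by 1.14 ± 0.22 and CB exceeded EB by 2.41 ± 0.22.

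Daam1, a formin of the planar cell polarity pathway, had gene-level signals of 6.50 and 6.65 in ES cells, 7.95 and 7.45 in EB, 7.94 and 7.74 in CB, 8.79 and 8.68 at E17.5, 9.07 and 8.09 at P1 and 8.83 and 8.82 in adult hearts. EB and CB overlapped, as did P1 and E17.5 hearts. EB exceeded ES cells by 1.12 ± 0.27, and CB lay below E17.5 hearts with a difference of -0.90 ± 0.27.

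The capping protein genes belonged to the set that varied little. Capzb lay between 9.72 and 10.07 on all 10 arrays of the 5 younger groups and at 10.88 and 10.71 in adult hearts, a difference between adult and P1 hearts of 0.86 ± 0.17. Capza1 was lowest at P1, with 10.01 and 9.48, and between 10.22 and 10.76 on the other arrays. Capza2 had its lowest group mean in ES cells, 9.86, and its highest at E17.5, 10.44, and 4 of the 5 neighbouring pairs in its order overlapped.

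Fhod1, the formin relative of Fhod3 that is found in many cell types, had its lowest mean in adult hearts, 6.24, and its highest in EB, 7.11. Arpc5 and Arpc5l encode alternative forms of the same Arp2/3 subunit, and their gene levels ran in opposite directions between ES cells and hearts. Arpc5 had a mean of 9.52 in adult hearts and 8.58 in ES cells, whereas Arpc5l had 6.39 in adult hearts and 7.10 in ES cells. The exon-level probe sets of Arpc5l did not follow its gene level in adult hearts. Probe sets 10471906 and 10471905 averaged 9.56 and 6.76 there, against 9.14 and 6.14 in ES cells. At E17.5 they averaged 8.83 and 4.49, under ES cells like the gene level. E17.5 hearts differed from ES cells by 0.92 ± 0.19 for Arpc5 and by -0.58 ± 0.19 for Arpc5l.

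Calls at an adjusted p under 0.05 (limma, Benjamini-Hochberg over all 19920 genes) are given for these genes only beside the share of all genes called, and nothing is read from them, since the genes were chosen on these arrays. For EB minus ES cells 5 of the 10 were called higher (Palld, Mical2, Fhod1, Arpc5 and Daam1) and 1 lower (Fhod3), where 12% of all genes were called higher and 8.61% lower. For CB minus EB 3 were called higher (Palld, Mical2 and Fhod3) and 0 lower, against 5.45% and 6.43% of all genes, and for CB minus ES cells 4 were called higher, with Daam1 added, and 0 lower, against 6.19% and 3.61%. For E17.5 hearts minus ES cells 5 were called higher (Palld, Mical2, Fhod3, Arpc5 and Daam1) and 1 lower (Arpc5l), against 17.8% and 18.4%. For CB minus E17.5 hearts 0 were called higher and 4 lower (Mical2, Fhod3, Arpc5 and Daam1), against 12.1% and 11.6%. In the heart, P1 minus E17.5 had 1 higher (Fhod3) and 0 lower, against 2.08% and 3.05%. Adult minus P1 had 2 higher (Capzb and Capza1) and 2 lower (Mical2 and Fhod1), against 15.6% and 14.7%, and adult minus E17.5 had 2 higher (Capzb and Fhod3) and 1 lower (Mical2), against 18.1% and 18%. Comparisons that name the same group share its arrays. With 1 array left out at a time the calls ran from 2 to 6 for EB minus ES cells and from 0 to 4 for CB minus E17.5 hearts.

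Promoter sequence is shown for Palld and Mical2, which were higher together in CB and hearts than in ES cells and EB, and Palld has the most start sites among the 8 of the 10 genes that had an entry in the RefSeq promoter table used here (build GRCm38.p6). The table holds 11 promoters for these 8 and gives Palld 3 start sites on the minus strand of chromosome 8 and Mical2 1 on the plus strand of chromosome 7. Each line is the 250 bases before the start, 5′ to 3′ in the direction of the transcript, and capitals mark a match to the M-CAT element, CATTCC read on either strand.
Palld, farthest upstream start, chr8:61902708-61902957: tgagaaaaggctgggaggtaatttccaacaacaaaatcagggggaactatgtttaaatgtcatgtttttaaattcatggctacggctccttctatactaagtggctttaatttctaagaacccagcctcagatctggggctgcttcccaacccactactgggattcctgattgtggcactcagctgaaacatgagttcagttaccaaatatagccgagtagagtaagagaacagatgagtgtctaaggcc
Palld, middle start, chr8:61760090-61760339: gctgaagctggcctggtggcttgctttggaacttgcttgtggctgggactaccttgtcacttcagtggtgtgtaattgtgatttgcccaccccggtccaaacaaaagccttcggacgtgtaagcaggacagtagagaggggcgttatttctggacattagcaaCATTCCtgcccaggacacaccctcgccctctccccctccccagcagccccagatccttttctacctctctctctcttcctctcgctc
Palld, farthest downstream start, chr8:61591140-61591389: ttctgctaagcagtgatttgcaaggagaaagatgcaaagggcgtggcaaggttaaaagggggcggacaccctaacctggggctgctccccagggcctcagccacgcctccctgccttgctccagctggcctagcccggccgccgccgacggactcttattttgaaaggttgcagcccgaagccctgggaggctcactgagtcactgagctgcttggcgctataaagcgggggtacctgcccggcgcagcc
Mical2, chr7:112225586-112225835: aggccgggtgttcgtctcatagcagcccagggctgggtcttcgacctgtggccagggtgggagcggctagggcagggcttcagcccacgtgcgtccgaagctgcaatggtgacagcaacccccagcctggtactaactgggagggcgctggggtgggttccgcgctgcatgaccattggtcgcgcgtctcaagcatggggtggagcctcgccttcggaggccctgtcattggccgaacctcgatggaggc
The Palld starts differ in base composition. The farthest upstream window holds 43.2% G and C and 2 CG pairs, the middle 55.2% and 6 CG pairs, and the farthest downstream 62.4% and 13 CG pairs, where the median over all 32851 promoters is 52.4% and 6 CG pairs. The Mical2 window holds 66% and 17 CG pairs. The middle Palld window has the only M-CAT match among the 11 promoters, and 12.6% of all promoters of this length hold one. None of the 11 holds a CArG box, found in 1.47% of all promoters, or a MEF2 site, found in 2.92%, which says only that these letters are not in these windows. Which probe sets lie after which start was not determined, because positions of probe sets were not used here.

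At exon level, 158 of the 171 probe sets had a group mean at or above the median exon-level signal of 6.63 in at least 1 group. Of those 158, 97 had an index range over the 6 group means of at least 1, with a median range of 1.28, while 53.9% of all probe sets at that level did, with a median of 1.07. None of the 4 probe sets of Capza1 reached a range of 1, and 3 of 13 of Capzb, 2 of 11 of Capza2 and 4 of 15 of Fhod1 did. In contrast 23 of 27 of Palld, 25 of 29 of Mical2, 20 of 28 of Fhod3, 3 of 4 of Arpc5 and both of Arpc5l did. The index holds the gene level, and these counts have no filter on it. Gene-level means spanned 4.68 for Mical2, 4.27 for Fhod3 and 3.46 for Palld, but 0.94 for Arpc5 and 0.71 for Arpc5l. The part of these spans in the index ranges was not tested. Daam1, with 15 of 25, was near the share of 53.9% over all probe sets.

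A probe set was counted as shifted in a comparison when its index differed by at least 1 with both arrays of 1 group beyond both of the other. Its gene had to be at or above the median gene level of 6.06 in both groups, and its own signal at or above the median exon-level signal in at least 1. For EB minus ES cells 8 of 86 member probe sets that passed the level filter were shifted, where 2.89% of all probe sets were. The counts were 14 of 120 for CB minus EB, against 2.41% of all, 16 of 115 for CB minus ES cells, against 2.61%, and 21 of 119 for E17.5 hearts minus ES cells, against 8.11%. CB minus E17.5 hearts had 11 of 148, against 6.66%, P1 minus E17.5 had 6 of 153, against 3.58%, adult minus P1 had 23 of 156, against 21.3%, and adult minus E17.5 had 28 of 151, against 23.9%. The counts depend on the level filter: for CB minus ES cells the 16 became 1 with filters at the 70th percentile and 37 without one, and for E17.5 hearts minus ES cells the 21 became 2 and 44. Because the genes were picked on such differences, nothing is read from the counts themselves, and the shares of all probe sets show how much of the array moved in the same comparison. In adult hearts more than 1 probe set in 5 was shifted across the whole array, so an adult shift of a member is one of many. The labels do not say whether the adult arrays were processed together with the others. In every adult comparison, at gene or exon level, stage and any difference in processing cannot be told apart. Leaving out EB replicate 1 gave 17 for EB minus ES cells and leaving out EB replicate 2 gave 31 for CB minus EB, while without ES replicate 1 the E17.5 hearts minus ES cells count was 33.

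**Figure D2:**
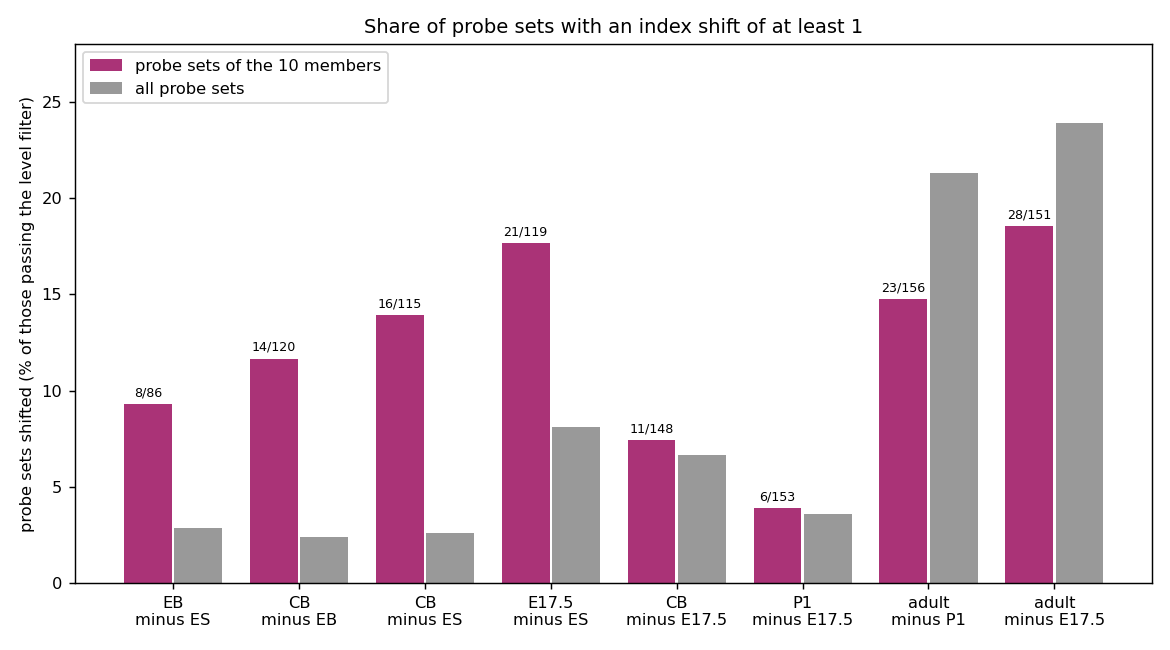
Share of probe sets shifted (y axis, percent of those passing the level filter) in 8 comparisons (x axis), for the 10 genes (left bars, with counts above) and for all probe sets (right bars). The member bars stand above those of all probe sets in the comparisons with ES cells or EB, and below them in both adult comparisons, where 21.3% and 23.9% of all probe sets were shifted.

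Near the threshold, the members just inside and just outside a shift of 1 were much alike. In CB minus EB the nearest inside was Mical2 10556403, with an index difference of 1.01, and the nearest outside was Capzb 10509630, with 0.97. In adult minus E17.5 they were Palld 10578835, with -1.02, and Fhod1 10581234, with 0.97.

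Capzb combined a steady gene level with 1 probe set that was far from steady. Probe set 10509631 had log2 signals of 4.72 and 5.55 in ES cells, 5.25 and 6.03 in EB, 10.26 and 9.14 in CB, 10.59 and 10.23 at E17.5, 10.40 and 10.47 at P1 and 10.79 and 10.89 in adult hearts. It was low on all 4 ES and EB arrays and high on all 8 others, while the gene level stayed between 9.72 and 10.07 on every array but the adult ones. Its mean index was -4.60 for ES cells, -4.36 for EB and -0.25 for CB, then 0.47, 0.50 and 0.05 in E17.5, P1 and adult hearts. CB differed from ES cells by 4.35 ± 0.41 and E17.5 hearts differed from ES cells by 5.07 ± 0.41, and P1 and E17.5 hearts differed by only 0.03 ± 0.41. In ES cells, CB and E17.5 hearts the array with the higher cardiomyocyte marker median also had the higher signal of this probe set. In EB, P1 hearts and adult hearts that array had the lower signal. The part of cardiomyocytes in these values was not tested.

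Of the 13 Capzb probe sets at or above the median signal, 10 had an index range under 1, so most of the gene was read alike in all groups. The next widest was 10509621, with signals of 10.13 and 10.08 in adult hearts, against 10.65 and 10.73 at P1. Its gene was higher in adults, and the index differed by -1.45 ± 0.33. It was followed by 10509630, which stood at 7.55 in EB replicate 2 and at 9.13 to 10.87 on the other 11 arrays. Its index difference between EB and ES cells was -1.01 ± 0.49 with both EB arrays and -0.10 without EB replicate 2.

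Capza1 and Capza2 encode the alpha subunits that pair with Capzb, and their probe sets at or above the median exon-level signal of 6.63 are given first. The 4 of Capza1 had index ranges from 0.19 to 0.62, and none was shifted in any of the 8 comparisons. In Capza2 the widest of the 11 at that level was 10536532, which stood at 6.41 in E17.5 replicate 2 and at 9.35 in E17.5 replicate 1, with 8.62 to 9.75 on the other 10 arrays. It was the only Capza2 probe set counted as shifted in any comparison, for adult minus E17.5 hearts at 1.62 ± 0.76, and its range rested on that 1 array. Weaker Capza2 probe sets, under that level in every group mean and picked once their values were known, had wider ranges. Probe set 10536531 had signals of 4.86 to 6.81 on the 6 heart arrays, against 1.68 to 3.24 on the 6 culture arrays, which include CB. Probe set 10536537 stood at 6.21 in adult replicate 2 and at 1.60 to 3.14 on the other 11 arrays.

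**Figure D3:**
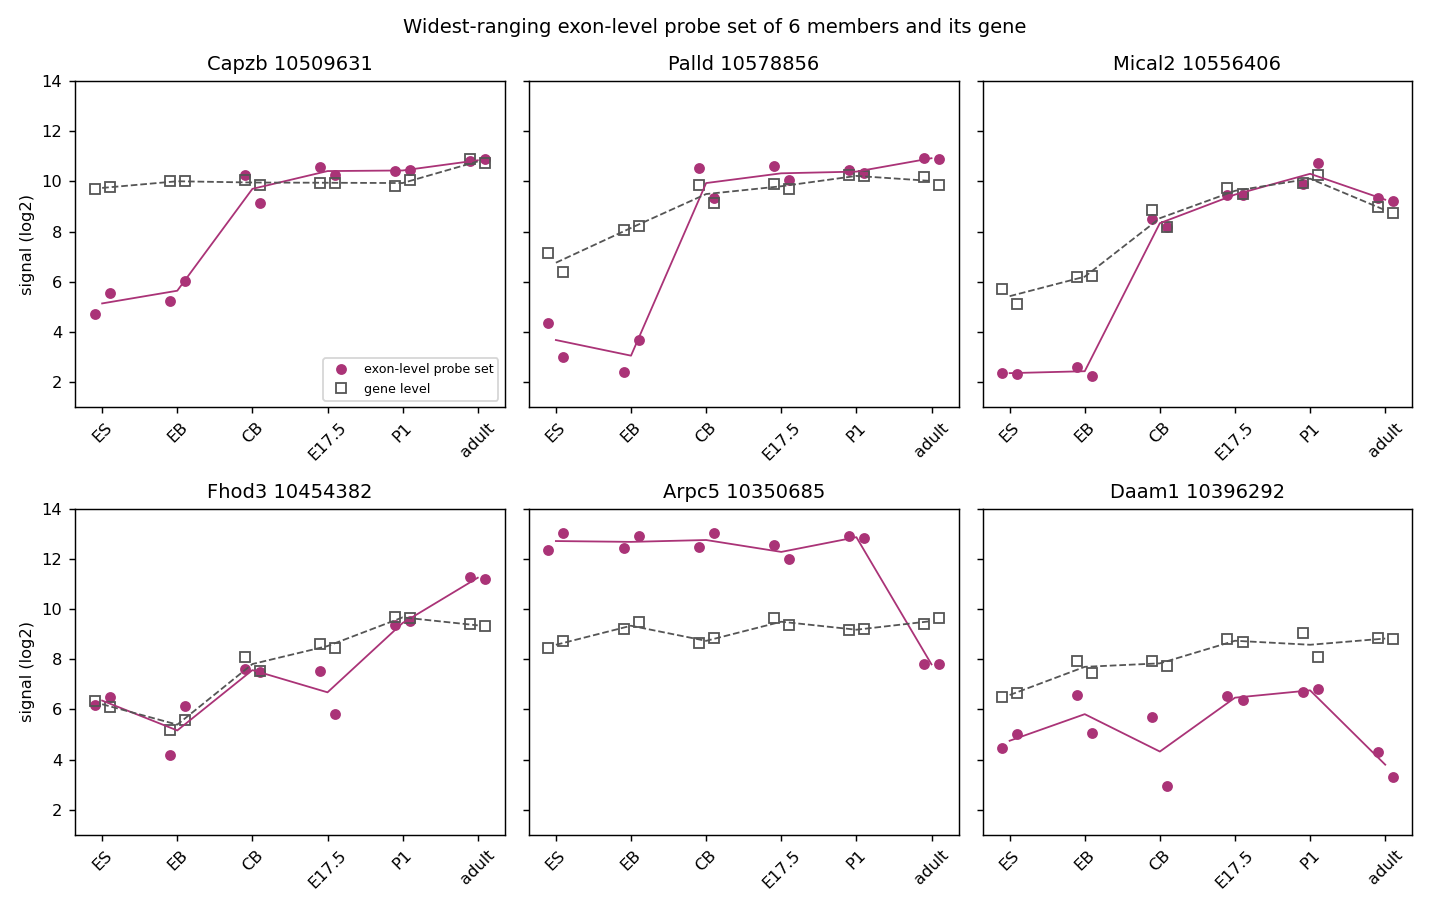
Log2 signal (y axis) of the probe set with the widest index range in 6 of the genes (filled points, solid line through means) and of the gene itself (open squares, dashed line) in 6 groups (x axis), 2 arrays each. In Capzb, Palld and Mical2 the probe set is low in ES cells and EB and near the gene level in CB and hearts, and in Arpc5 it is 7.79 and 7.80 in adult hearts and at least 11.99 elsewhere.

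Palld had the most shifted probe sets of the 10 genes, 19 of its 27 in at least 1 comparison. The share of all probe sets shifted in at least 1 of the 8 comparisons was not counted, so nothing is read from such counts. The widest Palld probe set, 10578856, had log2 signals of 4.34 and 3.01 in ES cells, 2.42 and 3.69 in EB, 10.52 and 9.35 in CB, 10.60 and 10.05 at E17.5, 10.45 and 10.33 at P1 and 10.95 and 10.90 in adult hearts. The 4 ES and EB arrays were at least 5 log2 units below the others, although the gene level in EB had already come to 8.07 and 8.22. CB differed in index from EB by 5.53 ± 0.39 and from ES cells by 3.52 ± 0.39, while CB and E17.5 hearts differed by -0.08 ± 0.39. Probe set 10578855, picked once its values were known, ran the same way, with 10.45 and 9.64 in CB, against 5.18 and 5.63 in EB and 6.25 and 5.68 in ES cells.

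When the Palld probe sets were read in order of their numbers, a grouping chosen after the values were seen, they were set in stretches with different patterns. Probe set 10578854, which was shifted for adult minus E17.5 hearts, lies between 2 stretches and was left out of them. The 16 probe sets from 10578830 to 10578845 had a median index between -0.22 and 0.59 on all 12 arrays, while single ones ran from -6.94 to 2.84. Of the 16, 8 were shifted in at least 1 comparison. The 8 from 10578846 to 10578853 had a median signal of 5.17 and 4.80 in ES cells, 5.19 and 8.31 in EB, 10.03 and 9.40 in CB, 10.09 and 9.67 at E17.5, 10.37 and 10.45 at P1 and 11.71 and 11.38 in adult hearts. In ES cells both signals were under 6.63 in 5 of the 8, and also in 7 of the 16 of the first stretch. EB replicate 2 exceeded EB replicate 1 by at least 2 in 7 of the 8 and in 0 of the 16. The exceptions in ES cells among the 8 include 10578853, with 7.33 and 6.41, and 10578850, with 6.71 and 6.64, which lay near the gene level. All 8 were highest on both adult arrays, where their median index was 1.52 and 1.53, against 0.13 and 0.25 at P1. They differed from 10578855 and 10578856, whose median signal in EB was 3.80 and 4.66, low in both replicates.

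Within the stretch of 8, probe set 10578848 had signals of 10.89 and 9.74 in CB, against 4.67 and 8.83 in EB and 3.03 and 4.20 in ES cells. Probe set 10578846 had 11.88 and 11.61 in adult hearts, against 10.37 and 10.45 at P1 and 10.25 and 9.82 at E17.5, and the index of adult and P1 hearts differed by 1.54 ± 1.19. Probe set 10578847 had 11.54 and 11.15 in adult hearts, against 9.98 and 10.08 at P1, with an index difference of 1.52 ± 1.25. These standard errors are wide because the EB and ES replicates differ in the same probe sets, and in the hearts alone the arrays did not overlap. Probe set 10578835 of the first stretch went the other way, with 6.92 and 6.73 in adult hearts, against 8.84 and 8.58 at P1. It was counted as shifted in 5 of the 8 comparisons and was picked once its values were known.

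The split of EB replicates was not general among the 10 genes. Of 24 Palld probe sets at or above the median in EB, 7 were higher by at least 2 in EB replicate 2 than in replicate 1 and 1 was lower. In Fhod3 2 of 11 were higher and in Daam1 3 of 22 were lower by that much, and 0 were in the other 7 genes. Of all 113123 probe sets 805 were higher and 2591 lower, together 3%. The same EB arrays differed in marker genes: the erythroid median was 5.87 in replicate 2 and 11.19 in replicate 1, the fibroblast median 6.56 and 8.34, the endothelial median 7.92 and 6.91, and the smooth muscle median 6.96 and 6.42. The part of these cells in the Palld split was not tested. Smooth muscle marker Tagln was 8.88 in replicate 2 and 7.59 in replicate 1, while Acta2 was 10.74 in replicate 2 and 12.06 in replicate 1.

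**Figure D4:**
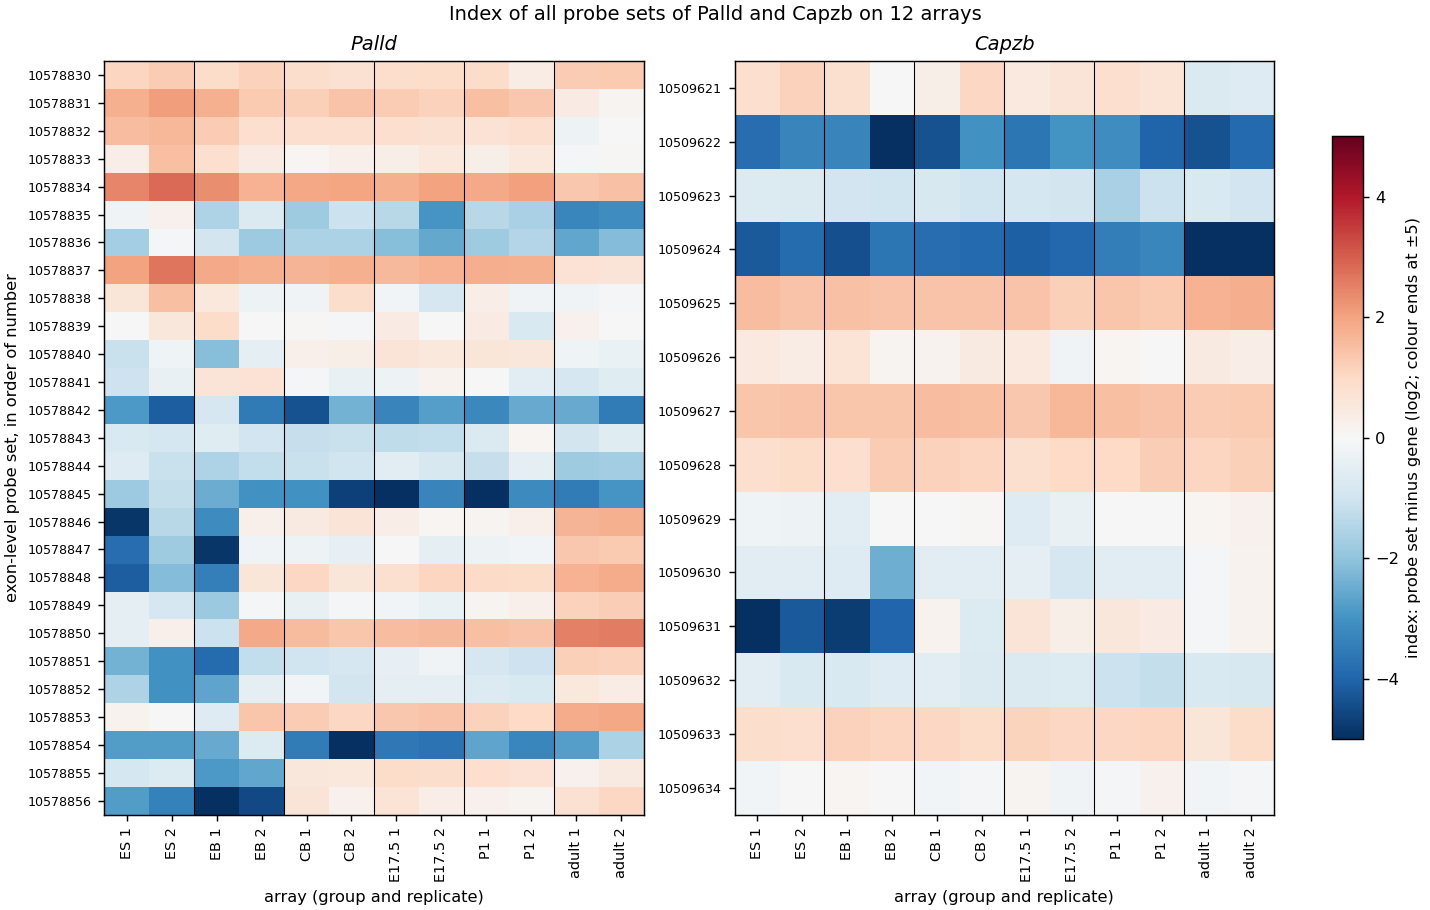
Index (colour, probe set minus gene, log2, ends at ±5) of all 27 probe sets of Palld and all 14 of Capzb (rows, in order of number) on 12 arrays (columns). Of the 8 Palld rows from 10578846 to 10578853, 6 are under 0 on both ES arrays, as are 7 of the 16 rows before them. All 8 are highest on both adult arrays, and the last 2 rows are low in ES cells and both EB arrays. In Capzb row 10509631 is low on the same 4 ES and EB arrays.

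In Mical2 a probe set that was far lower in ES cells and EB stood beside a probe set that stayed nearly level. Probe set 10556406 had log2 signals of 2.37 and 2.34 in ES cells, 2.62 and 2.25 in EB, 8.49 and 8.18 in CB, 9.48 and 9.47 at E17.5, 9.88 and 10.72 at P1 and 9.34 and 9.20 in adult hearts. It was far under the median exon-level signal of 6.63 in ES cells and EB and followed the gene from CB on, with an index of -3.77 in EB, -0.20 in CB and 0.42 in adult hearts. CB differed from EB by 3.57 ± 0.30, whereas CB and E17.5 hearts differed by -0.05 ± 0.30. Signals as low as those of 10556406, Palld 10578856 and Capzb 10509631 in ES cells and EB were not tested against background, so the sizes of these differences are not exact.

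Probe set 10556383 was nearly level instead. Its signal was 6.66 and 6.99 in ES cells, 6.75 and 6.11 in EB, 7.10 and 7.14 in CB, 7.32 and 7.32 at E17.5, 7.44 and 7.88 at P1 and 6.59 and 6.78 in adult hearts. All 12 arrays lay between 6.11 and 7.88 while the gene level spanned 4.68, so its index was 1.40 in ES cells and -2.45 at P1. The CB minus EB difference in index was -1.64 ± 0.40.

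Probe set 10556404 was low in ES cells and EB like 10556406, with 8.21 and 7.54 in CB, against 2.16 and 3.88 in EB and 2.09 and 2.15 in ES cells. Probe set 10556412 had 9.59 and 9.59 in adult hearts, against 9.64 and 10.26 at P1 and 8.93 and 7.80 at E17.5, so both adult arrays were under both P1 arrays and above both E17.5 arrays. Its index differed by 2.00 ± 0.54 between adult and E17.5 hearts. In ES cells the Mical2 gene, with a mean of 5.42, was under the median gene level of 6.06, so no Mical2 probe set passed the filter in the comparisons with ES cells.

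The probe sets that separated CB and hearts from ES cells and EB were few. They were counted among probe sets of genes at or above the median gene level in every group. The probe set itself had to reach the median exon-level signal in at least 1 group mean. Of all such probe sets, 0.0816% had all 8 CB and heart arrays apart by at least 1 from all 4 ES and EB arrays in index. Among the members 2 of 101 did, Capzb 10509631 with a gap of 3.27 and Palld 10578856 with a gap of 2.93. Mical2 10556406 had a gap of 2.40 but its gene was under the median level in ES cells. This separation was looked for after the values were seen and is part of what the genes were picked on. The median of the cardiomyocyte markers separates the same 8 arrays from the same 4, and so does the smooth muscle median. The smooth muscle median was 7.85 and 7.30 in CB and 7.92 to 8.72 in hearts. It was 5.68 and 5.62 in ES cells and 6.42 and 6.96 in EB. The fibroblast median was 5.94 and 6.16 in CB, against 5.01 and 5.35 in ES cells. The endothelial median was 5.16 and 5.38 in CB, against 4.93 and 4.94 in ES cells. In CB both were far under those of hearts. The part of cell makeup in the 3 probe sets was not tested.

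Some Fhod3 probe sets differed in index between heart stages, as many probe sets of the array did. For adult minus P1 3 of 28 were shifted higher and 2 lower, where 21.3% of all probe sets were shifted. For adult minus E17.5 3 were higher and 3 lower, against 23.9%, and nothing is read from these counts. Probe set 10454382 had log2 signals of 6.19 and 6.51 in ES cells, 4.18 and 6.15 in EB, 7.63 and 7.51 in CB, 7.54 and 5.82 at E17.5, 9.35 and 9.54 at P1 and 11.30 and 11.20 in adult hearts. The adult arrays were the highest, those of P1 next, and those of E17.5 overlapped with the cultures. Its index differed by 2.12 ± 0.59 between adult and P1 hearts and by 3.74 ± 0.59 between adult and E17.5 hearts, although the gene was slightly lower in adult than in P1 hearts.

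Probe sets 10454383 and 10454387 of Fhod3 went against it. Probe set 10454383 had 8.98 and 8.43 in adult hearts, against 10.54 and 10.39 at P1, with an index difference of -1.44 ± 0.23. Probe set 10454387 had an index of 1.96 in EB, 1.49 in ES cells and 0.13 in CB, and -0.95 in adult hearts, so it was highest relative to the gene where the gene was lowest. CB differed from ES cells by -1.36 ± 0.26. Probe set 10454373 ran the same way as 10454382 in adult hearts, with 10.12 and 10.19 in adult hearts, against 9.04 and 8.77 at P1, and its index differed by 1.57 ± 0.71. It stood at 4.41 and 2.10 in EB.

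Fhod1 showed little of this. The widest of its 15 probe sets at or above the median signal, 10581237, had an index range of 1.26, with signals of 8.39 and 7.72 in EB, against 5.36 and 6.77 in ES cells. The index of EB and ES cells differed by 1.26 ± 0.42, and by 0.64 to 1.88 with 1 array left out. A weaker one, 10581244, had 6.05 and 6.49 in adult hearts, against 4.68 and 5.66 at P1 and 2.89 to 4.54 on the 8 other arrays. It was picked once its values were known and stayed below the median exon-level signal in every group.

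Daam1 had 12 of its 27 probe sets shifted in at least 1 comparison, and each of the 8 comparisons held at least 1. As for Palld, the share of all probe sets was not counted for this, so nothing is read from it. Probe set 10396280 had signals of 8.23 and 7.76 in ES cells, 7.22 and 7.62 in EB, 7.93 and 7.22 in CB, 7.48 and 6.98 at E17.5, 7.60 and 7.16 at P1 and 7.70 and 6.57 in adult hearts. Its signal stayed between 6.57 and 8.23 while the gene was higher in every later group than in ES cells, so its index was 1.42 in ES cells and -1.51 at E17.5, a difference of -2.93 ± 0.47. Probe set 10396292 had 4.29 and 3.31 in adult hearts, against 6.69 and 6.83 at P1, with an index difference of -3.21 ± 0.77.

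Probe set 10396305 of Daam1, picked once its values were known, had 10.01 and 10.22 in adult hearts, against 9.07 and 8.42 at P1 and 8.39 and 7.76 at E17.5. It was highest in adults, where 10396292 had its lowest group mean. Probe set 10396297 stood at 3.69 in EB replicate 2 and at 8.30 in EB replicate 1, with 6.95 to 9.44 on the other 10 arrays. The index difference between EB and ES cells was -2.14 ± 1.02 and became -0.09 without EB replicate 2.

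**Figure D5:**
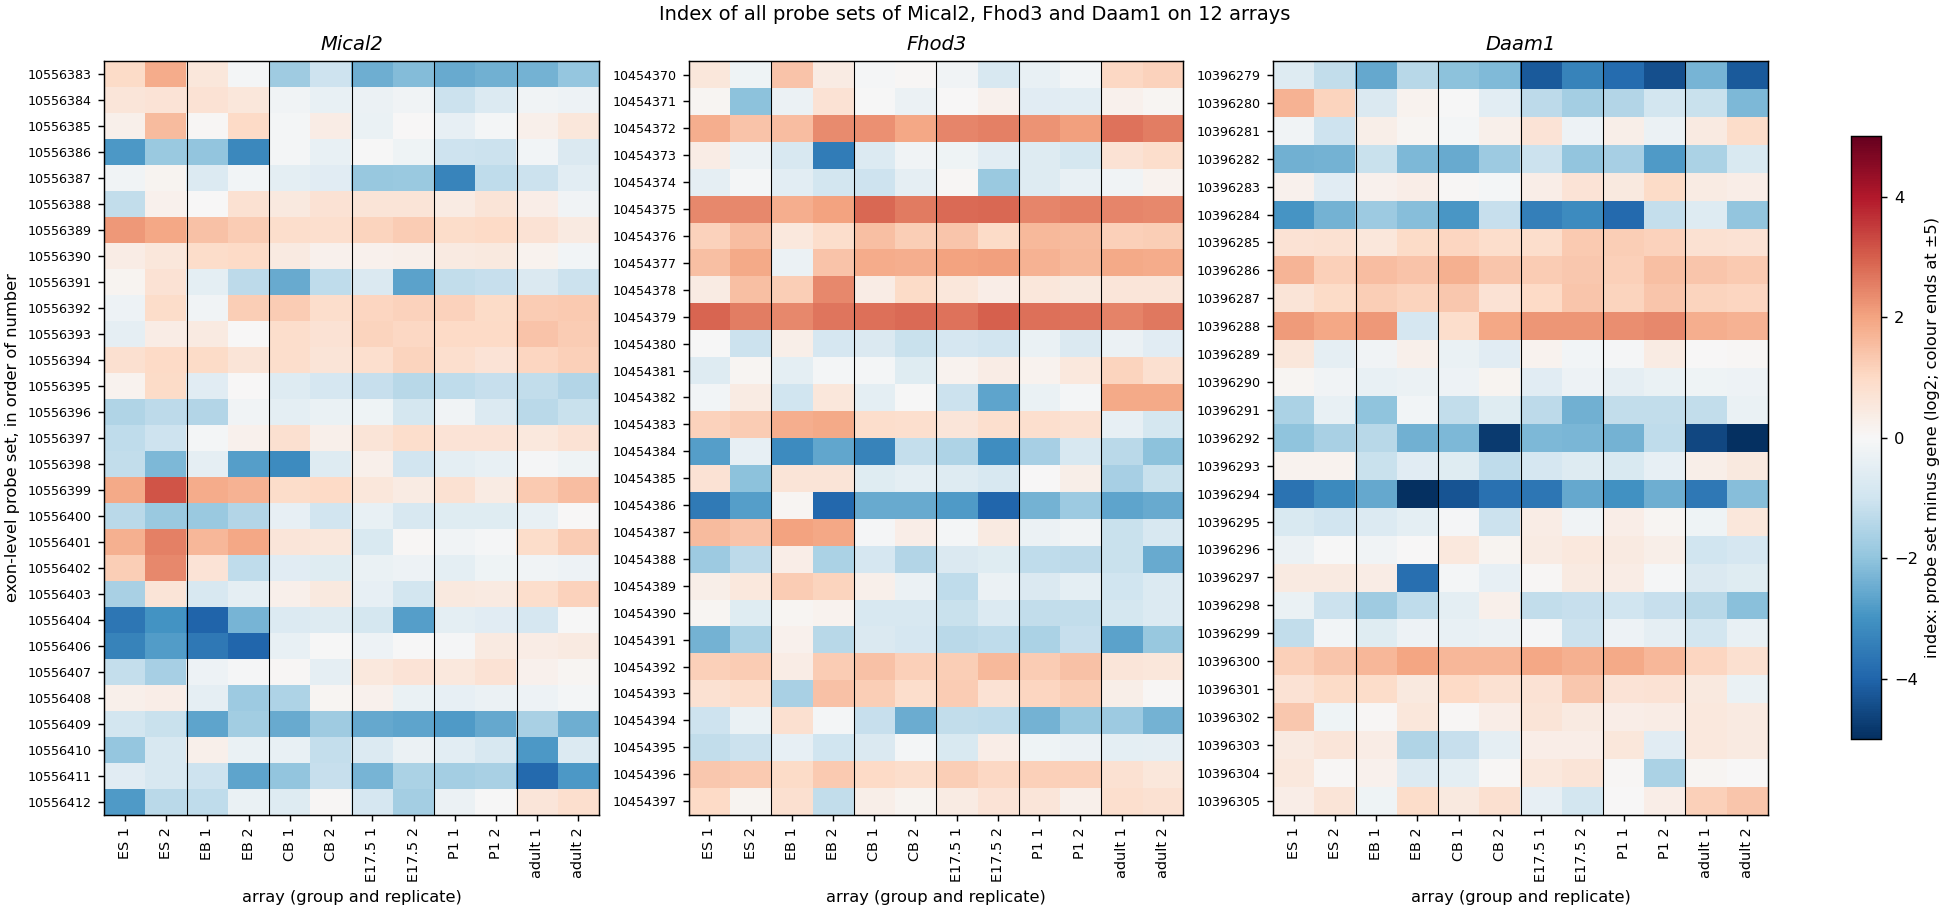
Index (colour, probe set minus gene, log2, ends at ±5) of all probe sets of Mical2 (29), Fhod3 (28) and Daam1 (27), as rows in order of number, on 12 arrays (columns). Mical2 10556406 is low on the 4 ES and EB arrays, Fhod3 10454382 is highest and 10454383 lowest in adults, and Daam1 10396280 is highest in ES cells.

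Arpc5 had the widest range of the Arp2/3 genes in a single probe set. Probe set 10350685 had log2 signals of 12.38 and 13.05 in ES cells, 12.45 and 12.91 in EB, 12.46 and 13.04 in CB, 12.57 and 11.99 at E17.5, 12.90 and 12.83 at P1 and 7.79 and 7.80 in adult hearts. It lay between 11.99 and 13.05 on 10 arrays and was lower on the 2 adult ones, while the gene level was 9.40 and 9.65 in adult hearts, against 9.16 and 9.19 at P1. Its index differed by -5.41 ± 0.25 between adult and P1 hearts and by -4.51 ± 0.25 between adult and E17.5 hearts. It was also counted as shifted for E17.5 hearts minus ES cells, at -1.35 ± 0.25, and for CB minus E17.5 hearts, at 1.24 ± 0.25.

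The other 3 probe sets of Arpc5 had ranges from 0.84 to 1.64. Probe set 10350688 had 9.70 and 9.92 in adult hearts, against 9.71 and 9.45 at P1, and 10350687 had 9.37 and 9.61 in adult hearts, against 8.65 and 8.21 at P1. Probe set 10350686 had 6.45 and 6.80 in adult hearts, against 6.74 and 7.24 at P1, arrays that overlapped, and its index was lowest in adult hearts, -2.90, against -2.19 at P1. With only 4 probe sets the gene level is partly made of 10350685 itself.

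Arpc5l has 2 probe sets. Probe set 10471905 had signals of 6.27 and 7.25 in adult hearts, against 4.18 and 5.53 at P1 and 4.85 and 4.13 at E17.5, below its 5.73 to 6.41 in the cultures. Its index differed by 2.41 ± 0.48 between adult and E17.5 hearts. The other, 10471906, had 9.66 and 9.47 in adult hearts, against 8.61 and 8.61 at P1, an index difference of 0.96 ± 0.28 that turned to -0.95 when the other probe set replaced the gene level as the base.

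For the adult split the level rules of the split of CB and hearts were kept, for the gene in every group and for the probe set in at least 1. Adult hearts stood apart from all other groups, by at least 1 in index, in 4.58% of all probe sets that passed. Among the members 4 of 101 did so, namely Arpc5 10350685 with a gap of -4.24 and Palld 10578846, 10578847 and 10578851 with gaps of 1.05, 1.28 and 1.33. Fhod3 10454382, with a gap of 1.34, and 10454383, lower in adults, did so in a gene that was under the median level in EB. Fhod1 10581244, with a gap of 1.42, did so with its own signal under the median exon-level signal in every group mean. Marker genes differed between the same hearts: the fibroblast median was 8.20 and 8.32 in adult hearts, against 11.06 and 10.12 at P1, and the macrophage median was 7.87 and 8.01 in adult hearts, against 6.68 and 6.73 at P1. Their part in the adult values was not tested.

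Across the 12 gene-level arrays, which share groups of 2, Palld correlated with Mical2 at r = 0.957, with Fhod3 at r = 0.863 and with Daam1 at r = 0.892, given as a description. Arpc5l ran against them, with r = -0.829 for Palld. The genes most like each member of the wide set, by Pearson r over the 12 arrays, were Pygb (0.984), Adssl1 (0.982) and Cap2 (0.978) for Palld, and Lbh (0.990), Rbm20 (0.988) and Mdh1 (0.986) for Mical2. For Fhod3 they were Fitm1 (0.993), Myom2 (0.988) and Fabp3 (0.986), and for Daam1 Sptbn1 (0.979), Mid2 (0.979) and Prkaa2 (0.975). For Capzb, whose pattern rests on the adult arrays, they were Ube2ql1 (0.985), Scand1 (0.978) and Pde6d (0.978).

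The other actin regulators give the setting in which the 10 genes moved. They are 88 measured genes of 95 listed, none of them a member, and their limma calls carry adjusted p-values over all 19920 genes, with the shares of all genes called as given above. For EB minus ES cells 19 rose and 8 fell, for CB minus EB 7 rose and 10 fell, and for CB minus ES cells 12 rose and 8 fell. For E17.5 hearts minus ES cells 26 rose and 17 fell, and for CB minus E17.5 hearts 11 rose and 17 fell. P1 minus E17.5 had 4 that rose and 1 that fell, adult minus P1 had 22 and 20, and adult minus E17.5 had 23 and 21. The median change of the 88 was 0.06 for E17.5 hearts minus ES cells, against -0.01 over all genes, and 0.25 for EB minus ES cells, against -0.03. Leaving out 1 array moved the total of 17 for CB minus EB to 10 without EB replicate 1, 11 without EB replicate 2, 6 without CB replicate 1, 10 without CB replicate 2 and 30 without either P1 array. It moved the total of 28 for CB minus E17.5 hearts to 9 without CB replicate 2, 11 without E17.5 replicate 1 and 16 without E17.5 replicate 2. The 20 for CB minus ES cells became 8 and 7 without ES replicates 1 and 2 and 5 and 11 without CB replicates 1 and 2, the 27 for EB minus ES cells became 17 without ES replicate 1, and the 5 for P1 minus E17.5 ran from 1 to 20.

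Among the 27 genes of capping, severing and monomer binding, the relatives of capping protein, 12 rose and 6 fell in E17.5 hearts against ES cells, where 17.8% of all genes were called higher and 18.4% lower. Cap2, which binds actin monomers, averaged 11.35 in E17.5 hearts and 5.47 in ES cells, a difference of 5.88 ± 0.29 (adjusted p = 2.46e-08, limma). Gsn, the severing protein gelsolin, averaged 10.24 in E17.5 hearts and 6.18 in ES cells (difference 4.06 ± 0.26, adjusted p = 2.11e-07, limma). Tmsb10, a thymosin that sequesters actin monomers, averaged 7.42 in adult hearts and 10.55 in P1 hearts (difference -3.13 ± 0.23, adjusted p = 1.88e-06, limma).

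Among the 27 genes of the Arp2/3 complex and its regulators, the partners of Arpc5 and Arpc5l, 11 rose and 5 fell in adult against P1 hearts, where 15.6% of all genes were called higher and 14.7% lower. Actr3, a core subunit of the complex, averaged 7.38 in adult hearts and 10.45 in P1 hearts (difference -3.07 ± 0.16, adjusted p = 1.59e-07, limma). Cyfip2, a subunit of the WAVE complex that activates Arp2/3, averaged 10.32 in adult hearts and 7.56 in P1 hearts (difference 2.76 ± 0.24, adjusted p = 7.76e-06, limma). In E17.5 hearts against ES cells 3 of the 27 rose and 3 fell.

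Among 14 other formins and their partners 1 rose and 3 fell in E17.5 hearts against ES cells in the comparison in which Fhod3 and Daam1 were higher. Diaph3, a formin of dividing cells, averaged 5.08 in adult hearts and 7.25 in E17.5 hearts (difference -2.16 ± 0.25, adjusted p = 3.30e-05, limma). Fmnl1, a formin known from blood cells, averaged 7.12 in adult hearts and 4.89 in E17.5 hearts (difference 2.23 ± 0.25, adjusted p = 2.08e-05, limma).

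Among 20 relatives and partners of palladin and Mical proteins 10 rose and 5 fell in E17.5 hearts against ES cells. Flnc, the muscle filamin, averaged 9.96 in E17.5 hearts and 6.34 in ES cells (difference 3.62 ± 0.25, adjusted p = 3.26e-07, limma). Myot, a Z-disc relative of palladin, averaged 8.35 in adult hearts and 4.54 in P1 hearts (difference 3.81 ± 0.33, adjusted p = 7.54e-06, limma). Mypn, another Z-disc relative, averaged 4.62 in CB and 6.95 in E17.5 hearts (difference -2.33 ± 0.24, adjusted p = 2.69e-05, limma), where Palld itself was at 9.50 in CB and 9.81 in E17.5 hearts. Mical3, a relative of Mical2, averaged 7.89 in adult hearts and 9.69 in P1 hearts (difference -1.80 ± 0.19, adjusted p = 2.63e-05, limma).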

How the data were processed

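The deposited values are log2 signals that the authors computed by RMA with Affymetrix Power Tools, per the submitters' processing notes (no version is given in the sources used here), for 35556 gene-level and 241576 exon-level features of the same 12 samples. Per the labels' protocols, TRIzol RNA was depleted of ribosomal RNA, amplified and biotin-labelled. No further normalization was done, and signals were not tested against background. Symbols came from the platform annotation, a feature needed exactly 1 symbol, and of several transcript clusters of a gene the one with the highest mean was used, so 10500928 for Capza1. The 1847 probe sets identical to their gene were left out, none of them a member's.

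The fits of gene level and index used limma (version 3.58.1, R 4.3.3) with 6 group means. Residual degrees of freedom were 6, prior ones 6.18 at gene level and 2.67 for the index. The procedure was tested on simulated data. The number of arrays limits the precision. Per member the 4 probe sets with the widest index range were named, per list and comparison up to 3 called genes with the largest change, and per member spanning at least 1 the 3 most correlated genes. The members, the 4 lists of other actin regulators, the markers and the comparisons were chosen with earlier results of these data known. Replicate numbers were not taken to pair samples, since the labels do not describe a pairing. Deviations of same-numbered arrays correlated between -0.18 and 0.29 over 15 pairs of groups, and 2 exceeded 0.1. Such correlations cannot exclude a pairing or a shared batch. Alternatives were a replicate block, quantile normalization, an intensity trend, level filters, the mean of clusters, another index base and each array left out. Tables were made with Python 3.11.15, pandas 2.3.3 and numpy 2.4.6, figures with matplotlib 3.10.9.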

Additional observations from a re-analysis of the deposited data

How the results depend on the processing

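Of the 38 index differences rerun, 1 comparison for each probe set named by rule, and the 80 gene-level differences, none that counted as shifted or called turned under the alternatives run. The replicate block left all 24 counts within 1.5 times, for instance 27 other actin regulators called for EB minus ES cells before and 25 with the block. The 38 index differences and 80 gene-level differences could not move with it, because every group holds 1 array of each replicate number. Shifted probe sets already had both same-numbered pairs in 1 direction, so their counts could not fall under the block. The median of the other probe sets as index base moved 12 of the 38 index differences and quantile normalization 5. Of the 80 gene-level differences quantile normalization moved 12 and the mean of all transcript clusters 1. Other actin regulators called for P1 minus E17.5 were 5, and 8 with quantile normalization or with genes at or above the median only. Member genes called for P1 minus E17.5 were 1, and 2 with an intensity trend or with genes at or above the median only. Member probe sets shifted were 1, 7, 1, 2 and 6 with level filters at the 70th percentile, and 29, 25, 37 and 44 without a filter on level for the first 4, in EB minus ES cells, CB minus EB, CB minus ES cells, E17.5 hearts minus ES cells and CB minus E17.5 hearts. They were 10 for P1 minus E17.5 with the median base. With 1 array left out, and the lone array taken to vary like the other groups, other actin regulators called ran from 17 to 30 for EB minus ES cells, 6 to 30 for CB minus EB, 5 to 23 for CB minus ES cells, 9 to 37 for CB minus E17.5 hearts and 1 to 20 for P1 minus E17.5. The lowest were without ES replicate 1, CB replicate 1, CB replicate 1, CB replicate 2 and E17.5 replicate 1, and the 20 was without P1 replicate 1. Member genes called ran from 2 to 6 for EB minus ES cells (2 without ES replicate 1 or EB replicate 1, 3 without ES replicate 2), 0 to 4 for CB minus E17.5 hearts (0 without E17.5 replicate 1), 0 to 4 for P1 minus E17.5 (0 without either E17.5 array, 4 without P1 replicate 1), 2 to 5 for adult minus P1 (2 without P1 replicate 2 or any 1 of the ES and adult arrays) and 1 to 3 for adult minus E17.5 (1 without E17.5 replicate 2 or adult replicate 1). Member probe sets shifted ran from 8 to 17 for EB minus ES cells, 14 to 31 for CB minus EB, 21 to 33 for E17.5 hearts minus ES cells, 11 to 19 for CB minus E17.5 hearts and 5 to 16 for P1 minus E17.5, with the highest without EB replicate 1, EB replicate 2, ES replicate 1, E17.5 replicate 1 and P1 replicate 1. With 1 array in a group fewer arrays need to be apart, which raises these counts. Groups of 2 arrays do not allow a test for an array that stands out. Apart from the fewer arrays left, the cause of these moves was not tested.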
